A study of Homo sapiens with 16 samples.

Results

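The 33 genes described here are ATF4, many of the genes it is known to switch on in the integrated stress response, and the enzymes that make serine and feed its carbon into the folate cycle. They were taken by gene symbol from a table of expected read counts per gene. The 33 symbols matched 34 of the 60669 genes in the table, because CBS is listed under 2 Ensembl identifiers. The entry that held 99.4% of the CBS counts was used. All 33 members passed the filter on low counts, which left 16555 genes for the tests.

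The integrated stress response begins with kinases that phosphorylate the translation factor eIF2 when amino acids run short, proteins misfold in the endoplasmic reticulum (ER), haem is lacking or viral RNA is present. General translation then falls, while the mRNA of the transcription factor ATF4 is translated more. ATF4 pairs with C/EBP proteins on short DNA elements and switches on genes for amino acid synthesis, uptake and charging of tRNA, together with feedback and stress factors. Some leukaemia cells are known to depend on genes of this kind, among them the asparagine synthetase gene ASNS and the serine synthesis gene PHGDH.

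The RNA was that of MOLM-13 cells, a line from a patient with acute myeloid leukaemia that carries an MLL fusion, kept in RPMI medium with serum. The 4 groups held 4 libraries each, after 4 days with 0.005% DMSO, with 1 µM of an EZH2 inhibitor (EZH2i), with 1 µM of a PRMT5 inhibitor (PRMT5i), or with both (the combination). EZH2 is the catalytic subunit of PRC2, the polycomb complex that methylates histone H3, and PRMT5 methylates arginines of histones and splicing factors. The study asked how PRMT5 activity and polycomb repression bear on each other. The labels name neither compound, do not restate the doses of the combination, and do not say whether replicates were separate cultures, so p-values speak only of the spread among these samples of 1 cell line, which may be technical.

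Libraries held 31.1 to 52.9 M expected counts (M, 1000000). Summed myeloid markers lay between 2460 and 3262 CPM in every library (counts scaled to a library of 1000000), and summed erythroid markers between 0 and 0.321 CPM. DMSO replicate 1 stood apart, with 1.70% mitochondrial counts against 0.213% in DMSO replicate 4 and the lowest scaling factor, 0.861. It also had the lowest PSAT1 and PHGDH and the highest MTHFD2 of the DMSO libraries, so counts are given without it where they change. Among the members, ASNS shares 44.6% of its exon bases with another annotated gene, DDIT4 41.2%, DDIT3 27.2%, MTHFD2 27.2%, ATF5 21.2% and PYCR1 15.6%. The partner of ASNS (AC079781.5) lies on the same strand, so a strand setting would not part the 2, and the partners of the other 5 lie on the opposite strand. Whether counting used the strand is not known from the labels, so the values of these 6 genes are uncertain.

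ATF4 and its C/EBP partners bind a composite element often written TGATGNAA, and the stretches below show where those letters stood before the members' start sites. They are shown because members with and without them are compared with the changes in RNA further on. RefSeq promoter entries (GRCh38.p14, 250 bases before to 50 bases after a gene's start) were present for 25 of the 33 members. TGATGNAA, or its reverse complement TTNCATCA, was found in 7 of the 25 (28%), against 4.46% of the 27305 genes in the same table. The stricter TGATGCAA, which is contained in the first motif, was found in 5 of the 25 (20%), against 1.08% of genes. The 30 bases around each match are given 5′ to 3′ on the strand of the gene, with the match in capitals.
ASNS: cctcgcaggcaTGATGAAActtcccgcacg
ATF3: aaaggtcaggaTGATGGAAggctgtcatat
CEBPG: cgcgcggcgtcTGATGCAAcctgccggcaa
CHAC1: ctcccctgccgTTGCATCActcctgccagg
HERPUD1: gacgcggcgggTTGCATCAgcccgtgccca
JDP2: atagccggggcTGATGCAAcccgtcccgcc
MTHFD1L: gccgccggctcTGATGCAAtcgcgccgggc
The ASNS stretch is chr7:97872458-97872487 on the minus strand, and its match begins 68 bases before the start site. The CHAC1 stretch is chr15:40953251-40953280 on the plus strand, 209 bases before the start. The others lie on the plus strand at chr1:212565205-212565234 (ATF3), chr19:33374060-33374089 (CEBPG), chr16:56931955-56931984 (HERPUD1), chr14:75427995-75428024 (JDP2) and chr6:150866346-150866375 (MTHFD1L). In GENCODE release 29 the stretches of ASNS, CEBPG, CHAC1, JDP2 and MTHFD1L lie inside the wider span of their gene, and those of ATF3 and HERPUD1 lie before it. A match in these letters is not a bound site. Binding of ATF4 was not measured.

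PRMT5 inhibition lowered the RNA of nearly the whole group. Of the 33 members, 30 fell, and the median log2 fold change was −1.53 (range −4.13 to 0.10). A fall of at least 1 on the log2 scale was seen in 26 of the 30, and of at least 2 in 10 of them. No member rose: 0 of 33 were higher at an adjusted p under 0.05 in edgeR's quasi-likelihood test, 0 at an unadjusted p under 0.05 and 0 in DESeq2. Over all genes tested the share called lower was 18.3%, the share called higher 17.1%, and the median log2 fold change 0.00. In 29 members all 4 PRMT5i libraries lay below all 4 DMSO libraries, against 17.2% of all genes. The members took 0.483% ± 0.0433 of all counts in DMSO and 0.198% ± 0.00248 in PRMT5i (SD, n = 4). Summed myeloid markers moved the other way, from 2491 to 2709 CPM in DMSO to 3063 to 3262 CPM in PRMT5i, with 5 of 12 genes higher and 1 lower, and their part in the member values was not tested. These are whole cultures, in which fewer cells of a kind and less RNA per cell cannot be told apart.

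ATF4 (chr22:39519695-39522685, GENCODE release 29, GRCh38) was the member with the highest level per length in DMSO, at 257 ± 21.4 CPM per kb of exon (SD, n = 4). EIF4EBP1, which encodes the translation repressor 4E-BP1, came next at 249 ± 33.6, and the 2 did not differ beyond their spread. MTHFD2 followed at 149 ± 37.5 and PSAT1 at 118 ± 49.6, again within their spread, while the lowest was the stress cofactor NUPR1 at 0.221 ± 0.0880.
ATF4 RNA was 712, 668, 590 and 620 CPM in the DMSO libraries and 211, 209, 222 and 211 CPM in the PRMT5i libraries, in order of replicate. The groups were far apart, and the PRMT5i libraries differed little among themselves. ATF4 RNA fell 3.03-fold (log2 −1.60, SE 0.14, adjusted p = 2.37e-07).

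Of the other transcription factors and cofactors, 6 of 7 fell with PRMT5i. TRIB3, a pseudokinase that binds ATF4 and dampens it, measured 267, 229, 211 and 203 CPM in DMSO and 50.0, 48.6, 44.0 and 41.0 CPM in PRMT5i, a log2 change of −2.31 (SE 0.15, adjusted p = 1.19e-08). JDP2, a repressor of the AP-1 family, fell 4.79-fold from 18.2, 33.4, 26.2 and 22.8 CPM to 5.02, 5.23, 5.60 and 5.15 CPM. ATF3, a stress-induced repressor, changed by −1.80 on the log2 scale. DDIT3, which encodes the pro-apoptotic factor CHOP, changed by −1.53 and shares exon bases with MARS on the opposite strand, which fell as well. CEBPG, a dimer partner of ATF4, fell least of these, with a log2 change of −0.76 from 136 to 158 CPM in DMSO to 86.9 to 91.2 CPM in PRMT5i. NUPR1 RNA changed by −1.22 (adjusted p = 0.00696), at levels of 0.400 to 1.66 CPM over both groups. Its groups overlapped, since DMSO replicate 1 read 0.527 CPM. ATF5, a relative of ATF4, did not pass the test, with a log2 fold change of −0.02 (SE 0.18) and DMSO libraries from 9.70 to 20.1 CPM.

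All 7 serine and one-carbon enzymes fell with PRMT5i. The serine pathway itself starts with PHGDH, and PHGDH RNA (chr1:119648411-119744226) was 140, 313, 191 and 192 CPM in DMSO and 31.4, 35.7, 31.6 and 29.5 CPM in PRMT5i. This was a 6.52-fold fall (log2 −2.70, SE 0.27, adjusted p = 8.48e-07), and the DMSO libraries spread far more than the PRMT5i libraries. PSAT1, the next enzyme, read 103, 346, 317 and 268 CPM in DMSO and 60.9, 70.2, 64.6 and 72.1 CPM in PRMT5i (log2 −1.95, SE 0.32, adjusted p = 0.000141). The groups did not overlap for PSAT1, although DMSO replicate 1 lay closer to the PRMT5i libraries than to the other DMSO libraries. PSPH, the phosphatase that completes serine, went from 91.7 ± 9.86 to 36.4 ± 1.17 CPM (SD, n = 4; log2 −1.33). Mitochondrial folate enzymes fell alongside. SHMT2, which splits serine into glycine and a one-carbon unit, changed by −1.22, and MTHFD2, which oxidises that unit, by −1.48. MTHFD1L, which releases it as formate, changed by −1.60 and ALDH1L2, which oxidises it to carbon dioxide, by −1.74.

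Among the 7 other enzymes of amino acid metabolism, 6 fell. ASNS (chr7:97852118-97872542), which makes asparagine, read 245, 269, 250 and 267 CPM in DMSO and 40.1, 39.7, 32 and 37.6 CPM in PRMT5i. Its fall of 6.89-fold (log2 −2.79, SE 0.21, adjusted p = 5.83e-08) was far beyond the narrow spread within each group. CBS and CTH, the consecutive enzymes that turn homocysteine into cysteine, fell 8.56-fold and 4.63-fold. CTH read 26.6, 24.8, 26.6 and 25.4 CPM in DMSO and 5.76, 6.48, 5.06 and 5.0 CPM in PRMT5i, the smallest adjusted p of the 33 members (2.13e-09). The log2 change of PCK2, the mitochondrial phosphoenolpyruvate carboxykinase, was −2.03, that of the alanine transaminase GPT2 −1.72 and that of the proline enzyme PYCR1 −1.49. ALDH18A1 catalyses the step before PYCR1 in proline synthesis. It did not follow: its libraries read 108 to 131 CPM in DMSO and 117 to 129 CPM in PRMT5i, with a log2 fold change of 0.07 (SE 0.07, adjusted p = 0.508).

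All 4 secreted and surface proteins fell, and they include the member with the largest fold change. STC2 (chr5:173314713-173329503), which encodes the secreted glycoprotein stanniocalcin, read 29.1, 40.8, 35 and 33.1 CPM in DMSO and 2.14, 2.08, 1.89 and 1.74 CPM in PRMT5i. The log2 fold change was −4.13 (SE 0.32, adjusted p = 5.83e-08), a 17.5-fold fall. INHBE, an inhibin chain of the TGF-beta family, fell 13.2-fold from 6.92 ± 0.729 to 0.515 ± 0.154 CPM (SD, n = 4). GDF15, a stress hormone of the same family, was at 1.69 ± 0.338 CPM in DMSO and changed by −1.01. VLDLR, a lipoprotein receptor, changed by −0.57.
CHAC1 (chr15:40952962-40956519) encodes an enzyme that breaks down glutathione. It read 24.5, 35.8, 27.4 and 24.2 CPM in DMSO and 1.94, 2.08, 1.75 and 1.57 CPM in PRMT5i, a 15.2-fold fall (log2 −3.92, SE 0.53, adjusted p = 2.39e-05). The other ER and glutathione member, HERPUD1, which helps to clear misfolded ER proteins, did not pass the test. It read 47.5, 79.0, 68.6 and 69.6 CPM in DMSO and 67.5, 68.3, 71.7 and 75.3 CPM in PRMT5i, a log2 fold change of 0.10 (SE 0.12, adjusted p = 0.579).

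All 5 genes of translation control and growth braking fell, some of them by little. SESN2 and DDIT4, which restrain the growth kinase mTORC1, changed by −1.46 and −1.35 on the log2 scale, and EIF4EBP1 by −1.31. XPOT, the export receptor of tRNA, went from 548 ± 70.6 to 385 ± 13.6 CPM (SD, n = 4; log2 −0.51). PPP1R15A encodes GADD34, which takes the phosphate off eIF2 again, and had the smallest change among the 30 members that fell (log2 −0.45, adjusted p = 0.00193). Of the 30 calls, 28 held in all alternatives listed in the closing section, each of the 8 single libraries left out included. NUPR1 lost its call within replicates 1 and 2 (adjusted p = 0.165) and within replicates 3 and 4 (0.0636), and PPP1R15A within replicates 1 and 2 (0.112).

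**Figure D1:**
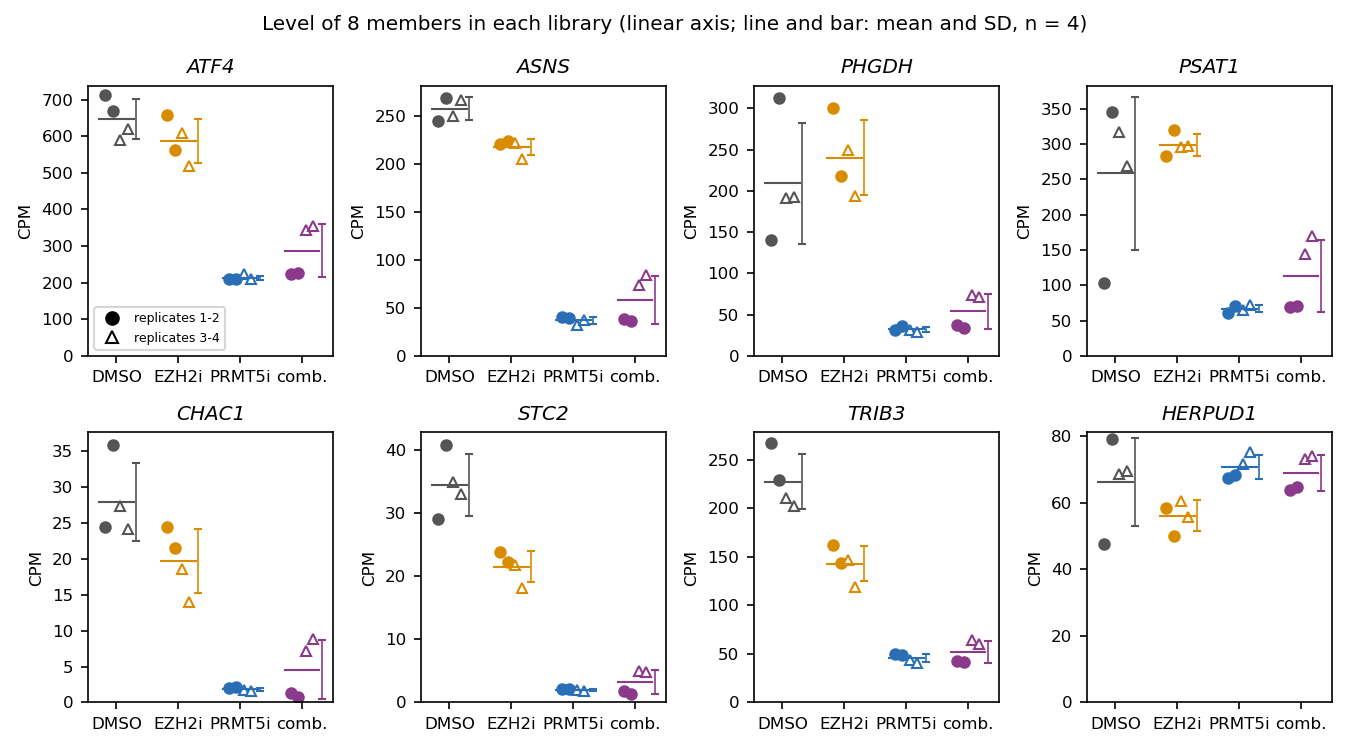
Level of 8 members in each of the 16 libraries, in CPM on a linear axis from 0, by treatment. Filled circles are replicates 1 and 2, open triangles replicates 3 and 4, horizontal lines the group means and vertical bars the SD (n = 4). The PRMT5i libraries lie close together and below all DMSO libraries in all panels but HERPUD1. For PSAT1, DMSO replicate 1 (103 CPM) lies near the PRMT5i libraries (60.9 to 72.1 CPM). In the combination replicates 3 and 4 lie above replicates 1 and 2, for CHAC1 at 7.22 and 8.87 against 1.31 and 0.762 CPM.

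Members with the motif in their promoter entry did not all move alike with PRMT5i. CHAC1 changed by −3.92 on the log2 scale, ASNS by −2.79, JDP2 by −2.26, ATF3 by −1.80, MTHFD1L by −1.60 and CEBPG by −0.76. HERPUD1 holds the same TTGCATCA as CHAC1, 176 bases before its start, and had a log2 fold change of 0.10. Members that had entries without a match in this window also covered a wide range. Among them STC2 changed by −4.13, PHGDH by −2.70, VLDLR by −0.57, XPOT by −0.51 and PPP1R15A by −0.45. ATF5 (−0.02) and ALDH18A1 (0.07), likewise without a match, did not pass the test.

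Other genes tied to the response gave a mixed picture with PRMT5i, from lists that share no gene with the members. Among all genes tested 18.3% fell and 17.1% rose, the shares to set beside the counts below. Of 12 amino acid transporters, 10 fell and 1 rose, with a median log2 fold change of −1.26. The one that rose, SLC36A1 (0.38), lost its call within replicates 1 and 2 (adjusted p = 0.390) and in a fit of the 2 groups alone (0.0694). The cystine transporter SLC7A11 went from 78.1 ± 23.9 to 8.49 ± 1.13 CPM (SD, n = 4; log2 −3.20, adjusted p = 7.94e-07). SLC3A2, the heavy chain that carries SLC7A11 and its relatives to the membrane, changed by −1.51, and the glutamine transporter SLC38A1 by −1.27. Of 20 cytosolic aminoacyl-tRNA synthetases, 12 fell and 0 rose (0 at an unadjusted p under 0.05 and 0 in DESeq2), with a median of −0.74. The 3 with the smallest p were SARS (−1.01), LARS (−0.89) and MARS (−1.46), which charge serine, leucine and methionine tRNA. Of 20 further folate and glycine genes, 9 fell and 0 rose (1 at an unadjusted p under 0.05, 0 in DESeq2), among them MTR (−0.61) and SHMT1 (−0.56).

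The genes upstream of ATF4 and the other arms of the ER stress response did not show this fall. Of 16 genes for eIF2, its kinases, its exchange factor and proteins that regulate these (PPP1R15B, IMPACT, NCK1 and DNAJC3), 3 rose and 4 fell, with a median log2 fold change of 0.08. Among all genes 17.1% rose and 18.3% fell, so these few calls were near the shares of all genes. EIF2S2, a subunit of eIF2, changed by −0.74 and the ER kinase EIF2AK3 (PERK) by −0.40, while the RNA-sensing kinase EIF2AK2 (PKR) changed by 0.53. The others called, named here after their values were seen, were the exchange factor subunits EIF2B2 (−0.41) and EIF2B3 (−0.53), the amino acid sensing kinase EIF2AK4 (GCN2, 0.36) and EIF2S3 (0.32). Of these 7 calls, 6 were lost within 1 or both replicate pairs, EIF2S2 being the exception. The EIF2AK4 call was also lost without PRMT5i replicate 3 (adjusted p = 0.0509) or 4 (0.0550) and in the 2 groups alone (0.0813), and that of EIF2S3 without PRMT5i replicate 4 (0.0507). Of 18 genes of the ATF6 and XBP1 arm, 7 rose (17.1% of all genes) and 2 fell (18.3% of all genes), with a median of 0.18. The ER chaperones CALR, HSP90B1 and HSPA5 rose by 0.80, 0.71 and 1.04 on the log2 scale, and HSPA5, the main ER chaperone, went from 92.6 ± 44.3 to 190 ± 34.2 CPM (SD, n = 4). The HSPA5 call was lost within replicates 1 and 2 (adjusted p = 0.167). The 2 that fell were ATF6 (−0.25) and the chaperone HYOU1 (−0.28). Both calls were lost within either replicate pair, by total counts and with no filter. The ATF6 call was lost without DMSO replicate 1 or 4 or any 1 PRMT5i replicate (adjusted p 0.0533 to 0.107), and the HYOU1 call without DMSO replicate 2 or 4 or PRMT5i replicate 3 or 4 (0.0659 to 0.106).
Of 8 genes of glutathione and methionine metabolism outside the members, 1 rose (17.1% of all genes) and 3 fell (18.3% of all genes). All 4 changed by less than 1 on the log2 scale. GPX4 changed by −0.47, GGCT by −0.45, GSR by −0.24 and GCLM, a subunit of the enzyme that starts glutathione synthesis, by 0.57. Within replicates 3 and 4 the calls of GGCT (adjusted p = 0.0591), GSR (0.264) and GCLM (0.409) were lost. Those of GGCT (0.0859) and GCLM (0.145) were also lost within replicates 1 and 2, and that of GSR with no filter (0.0748). The GCLM call was lost in the 2 groups alone (0.0613) as well. It was also lost without DMSO replicate 2, 3 or 4 or PRMT5i replicate 1, 2 or 4 (0.0674 to 0.109). MYC, which also acts on serine synthesis genes and was singled out after its value was seen, had a log2 fold change of −0.35 (SE 0.17, adjusted p = 0.125). Without DMSO replicate 1 it passed the test at −0.54 (adjusted p = 0.000402). Among the 6 tested genes of the list of MYC, its family and partners, MXD4 rose by 1.11 and MXD3 changed by −0.78, a call lost within replicates 3 and 4 (adjusted p = 0.0576).

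**Figure D2:**
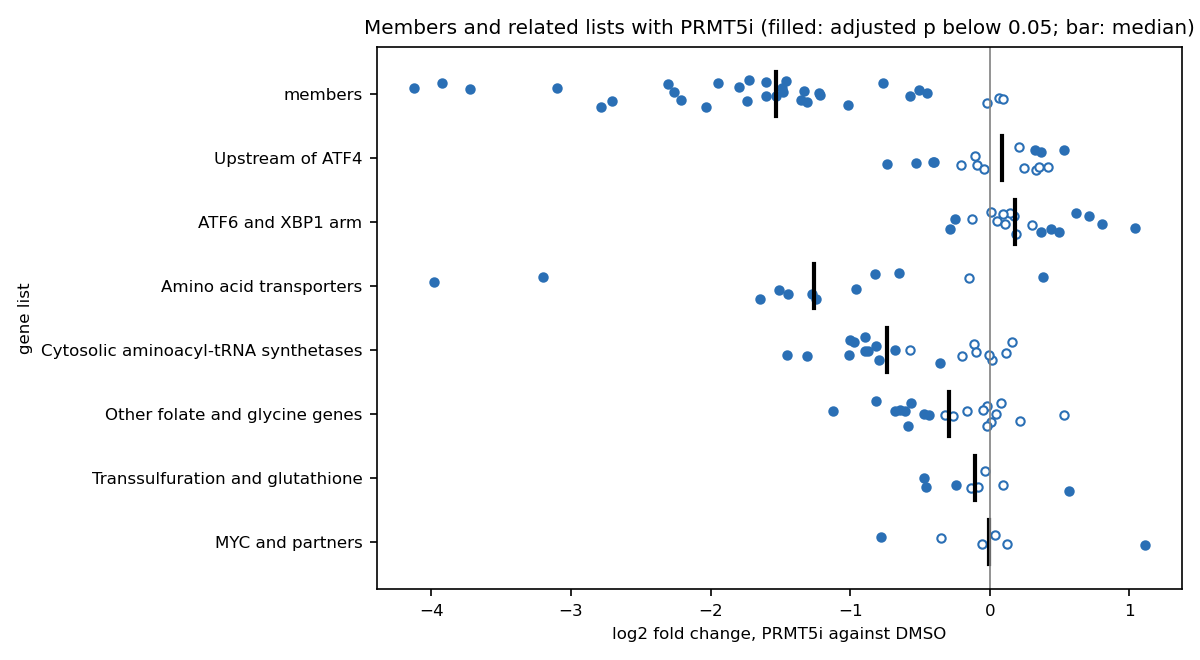
Log2 fold change with PRMT5i against DMSO for the 33 members and 7 related gene lists. Each point is a gene, filled where its adjusted p was under 0.05, and black bars are medians. The median was −1.53 for the members and −1.26 for amino acid transporters, and lay above 0 for the genes upstream of ATF4 (0.08) and for the ATF6 and XBP1 arm (0.18).

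EZH2 inhibition alone moved far fewer members and moved them less. Of the 33, 7 fell (3.49% of all genes were called lower) and 0 rose (0 at an unadjusted p under 0.05 and 0 in DESeq2, against 4.11% of all genes called higher). Their log2 changes were −0.71 for DDIT3, −0.67 for TRIB3, −0.63 for PSPH, −0.62 for MTHFD2, −0.46 for CTH, −0.34 for CEBPG and −0.32 for XPOT, and the median over the 33 was −0.24 against −0.01 for all genes. TRIB3 read 162, 144, 147 and 119 CPM with EZH2i, below each of the 4 DMSO libraries. DDIT3 read 19.0, 17.3, 18.4 and 16.4 CPM, against 38.1, 27.2, 25.0 and 26.1 CPM in DMSO. In 11 members the EZH2i libraries all lay below the DMSO libraries, against 5.10% of all genes. Summed epithelial and fibroblast markers were 12.7 to 17.5 CPM in DMSO and 19.2 to 31.4 CPM with EZH2i, with 4 of 4 tested genes higher, CDH1 at 0 in every library and EPCAM at no more than 16 counts in any. Their part in the member values was not tested. ATF4 itself read 659, 562, 609 and 518 CPM, overlapped with DMSO and had a log2 fold change of −0.14 (SE 0.14, adjusted p = 0.531). STC2 read 23.9, 22.2, 21.8 and 18.2 CPM, below all DMSO libraries, with a log2 fold change of −0.68 that did not pass the test (adjusted p = 0.127).
Of the 7 calls with EZH2i, that of TRIB3 alone held in every alternative. DDIT3 lost its call within replicates 3 and 4 (adjusted p = 0.102) and in a fit of DMSO and EZH2i libraries alone (0.0639), and PSPH within replicates 1 and 2 (0.0714). Leaving out 1 library ended the call of CEBPG for DMSO replicates 1, 3 and 4 and EZH2i replicates 1 and 3 (adjusted p 0.0508 to 0.0617). It ended that of MTHFD2 for DMSO replicates 1 and 4 and EZH2i replicates 1 and 3 (0.0632 to 0.0788), and that of CTH for DMSO replicates 3 and 4 and EZH2i replicates 1 and 4 (0.0507 to 0.0573). The XPOT call was lost without any 1 of DMSO replicates 1, 3 and 4 and EZH2i replicates 1, 2 and 3 (0.0502 to 0.101). Without DMSO replicate 1, which stood apart, 5 of the 33 members fell. The count was 4 when replicate 3 of either group was left out, 3 when the DMSO library numbered 4 was left out and 3 when the EZH2i library numbered 1 was.

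With both inhibitors the members again lay far below DMSO. In the combination 29 of the 33 fell (18.5% of all genes were called lower) and 0 rose (0 at an unadjusted p under 0.05 and 0 in DESeq2, against 17.6% of all genes), with a median log2 fold change of −1.31. In 28 members no combination library reached the lowest DMSO library, against 16.4% of all genes. The members not called were ATF5, ALDH18A1 and HERPUD1, as with PRMT5i, and GDF15, with a log2 fold change of −0.34 (SE 0.21, adjusted p = 0.227). ATF4 fell 2.25-fold, STC2 11.0-fold, CHAC1 6.27-fold, ASNS 4.42-fold and PHGDH 3.87-fold against DMSO. Against EZH2i the combination had 28 members lower (14.6% of all genes) and 0 higher (1 at an unadjusted p under 0.05, 0 in DESeq2, against 13.4% of all genes), with a median of −1.01. For 28 members the combination libraries all lay below the EZH2i libraries, against 15.6% of all genes. Of these 28 calls, 19 held in all alternatives. CEBPG lost its call within replicates 1 and 2 (adjusted p = 0.0654). Within replicates 3 and 4, where 20 members were lower, the calls lost were those of SESN2 (0.303), PSAT1 (0.147), MTHFD2 (0.132), NUPR1 (0.130), VLDLR (0.126), PPP1R15A (0.108), ATF3 (0.0871) and PSPH (0.0777). Comparisons that use the same libraries as reference are not independent of each other.
Of the 29 calls against DMSO, 23 held in all alternatives. NUPR1 lost its call within replicates 1 and 2 (adjusted p = 0.0606). PSAT1 (0.127), ALDH1L2 (0.0630), VLDLR (0.161), PPP1R15A (0.107) and XPOT (0.0872) lost theirs within replicates 3 and 4, and PPP1R15A also with library sizes from total counts (0.0524).

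**Figure D3:**
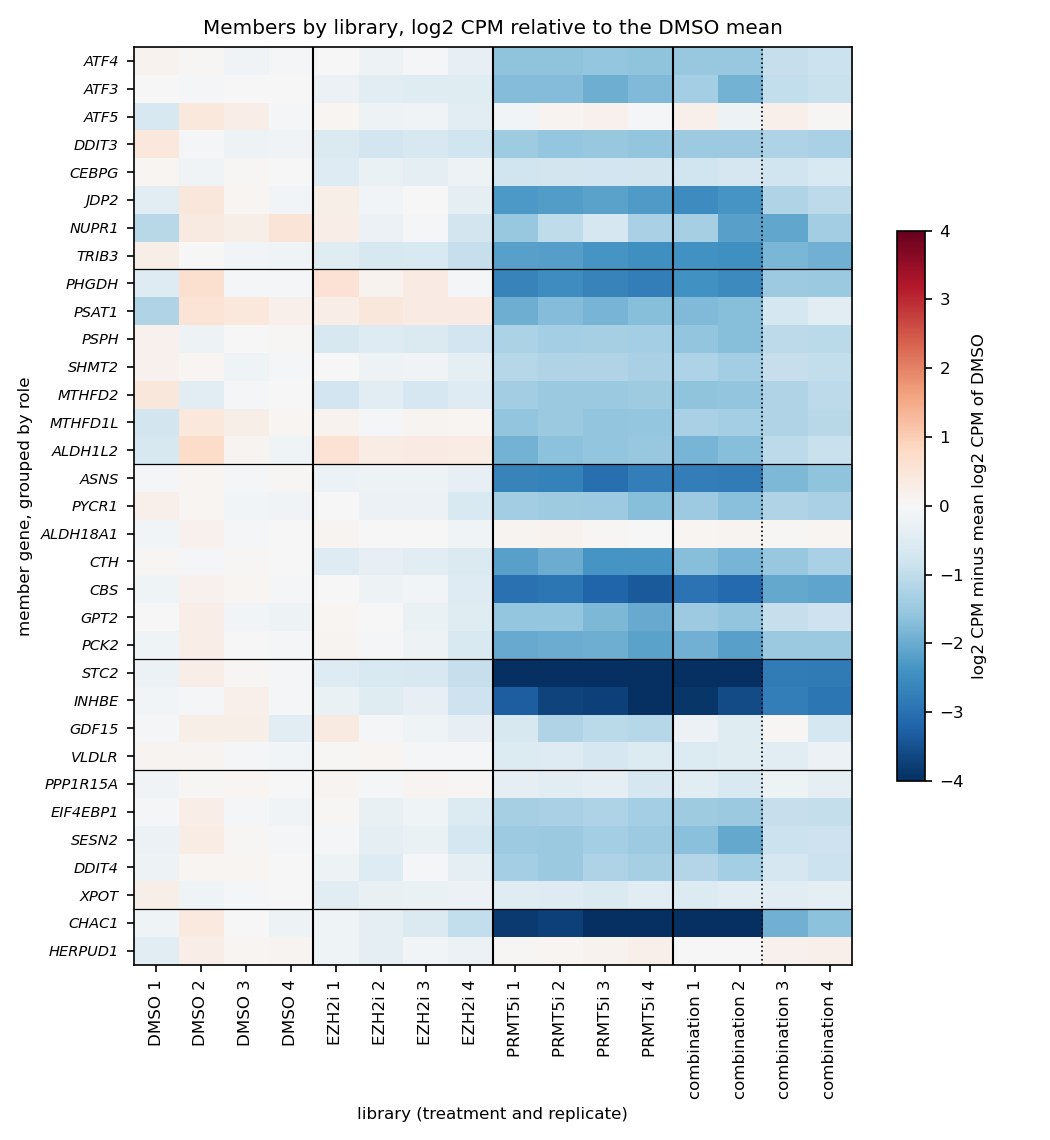
Log2 CPM of the 33 members in each of the 16 libraries, relative to the mean log2 CPM of the 4 DMSO libraries, with members in rows grouped by role and libraries in columns. Blue is below and red above the DMSO mean on a scale from −4 to 4, and the dotted line parts combination replicates 1 and 2 from 3 and 4. The PRMT5i and combination columns are blue in most rows, ATF5, ALDH18A1 and HERPUD1 stay near 0, and combination replicates 3 and 4 are paler than 1 and 2.

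With both inhibitors 1 member was higher than with PRMT5i alone. Most others had higher values that did not pass the test. Nearly all members were higher within replicates 3 and 4, while within replicates 1 and 2 they went both ways. CTH rose from 5.76, 6.48, 5.06 and 5.0 CPM with PRMT5i to 7.99, 7.16, 9.0 and 10.6 CPM in the combination (log2 0.64, SE 0.12, adjusted p = 0.00537). All 4 combination libraries lay above all 4 PRMT5i libraries for CTH. The share of all genes called higher was 2.91%. None of the members was lower (0 at an unadjusted p under 0.05 and 0 in DESeq2, against 1.24% of all genes), although 12 were higher at an unadjusted p under 0.05 and 6 were called higher by DESeq2. The libraries of 3 members did not overlap, with the combination higher, against 10.2% of all genes. The log2 fold change was above 0 for 31 of the 33 members, with a median of 0.29 against 0.00 for all genes. Within replicates 1 and 2 it was above 0 for 14 and below 0 for 19, and within replicates 3 and 4 above 0 for 32. Values that did not pass the test include CHAC1 at 1.27 (SE 0.53, adjusted p = 0.230), PSAT1 at 0.76 (0.219), PHGDH at 0.75 (0.122), STC2 at 0.67 (0.312), ASNS at 0.64 (0.0961), ATF4 at 0.43 (0.101) and NUPR1 at −0.58 (0.487). The CTH call was lost within replicates 1 and 2 (log2 0.31, adjusted p = 0.424). Without combination replicate 1, or without combination replicate 2, 3 members were called higher. Of the 20 further folate and glycine genes, 4 rose in this comparison, and of the 16 genes upstream of ATF4, 1 rose. Among the 4 was MTR (0.26, adjusted p = 0.0295), whose call was lost within either replicate pair (0.435 and 0.251). The MTR call was also lost with no filter on low counts (0.268). Without PRMT5i replicate 1, 3 or 4 or combination replicate 1, 2 or 4 it was lost too (0.0576 to 0.107). Among the transporters, 2 of 12 rose in this comparison: SLC38A1 by 0.81 (adjusted p = 0.000251) and SLC7A11 by 1.35 (adjusted p = 0.0168) on the log2 scale. Within replicates 1 and 2 both transporter calls were lost (0.0819 and 0.721), and that of SLC7A11 also without PRMT5i replicate 3 (0.0739), PRMT5i replicate 4 (0.0573) or combination replicate 4 (0.0640).
The interaction subtracts the log2 change from DMSO to EZH2i from the log2 change from PRMT5i to the combination. It passed the test for CTH (1.09, SE 0.16, adjusted p = 0.00398) and DDIT3 (0.86, SE 0.17, adjusted p = 0.0370). Both had fallen with EZH2i alone. Among all genes 0.254% had a positive interaction at this threshold and 0.0362% a negative one, and of the members 0 had a negative one (0 at an unadjusted p under 0.05 and 0 in DESeq2). The DDIT3 call was lost without any 1 of the 12 libraries outside DMSO (adjusted p 0.0524 to 0.115). It was also lost within replicates 1 and 2 and within replicates 3 and 4, with log2 values there of 0.86 and 0.83. The CTH call was lost within replicates 1 and 2, with a log2 value of 0.71 (adjusted p = 0.469). Each pair alone held 2 libraries per group. The interaction was positive for 32 of the 33 members, with a median of 0.55. Within replicates 1 and 2 it was positive for 23 and negative for 10, with a median of 0.11, and within replicates 3 and 4 positive for 33, with a median of 0.89. Over all libraries it reached 1.78 for CHAC1 (SE 0.70, adjusted p = 0.474) and 1.35 for STC2 (SE 0.42, adjusted p = 0.300).

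The 4 combination libraries were not alike in these genes. Replicates 3 and 4 held more RNA of most members than replicates 1 and 2. The split into these pairs had been noted in earlier results of these same data. The p-values and shares for the pair difference, here and below, are therefore not independent support for it. CHAC1 read 1.31 and 0.762 CPM in replicates 1 and 2 and 7.22 and 8.87 CPM in replicates 3 and 4 (log2 difference 2.94, SE 0.27, adjusted p = 0.00261). STC2 read 1.73 and 1.32 CPM against 4.94 and 4.79 CPM (1.67, SE 0.19, adjusted p = 0.00978). ASNS read 38.1 and 36.7 CPM against 74.1 and 84.4 CPM (1.08, SE 0.11, adjusted p = 0.00466). These 3 members are among only 5 genes of all 16555 called higher in replicates 3 and 4 of the combination (0.0302%) in a model with 8 means, 1 for each treatment and replicate pair. The count of genes lower was 0 (0%), with 0 members lower at an unadjusted p under 0.05 and 21 higher. This model was not fitted with DESeq2. With library sizes taken from total counts alone, 1 of the 33 members passed the test.

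Most other members pointed the same way without passing the test. Both replicates 3 and 4 lay above both replicates 1 and 2 of the combination in 27 of the 33 members, against 21.0% of all genes. The same count was 1 in DMSO (12.8%), 1 in EZH2i (15.1%) and 4 in PRMT5i (24.5%). Both lay below in 1 member in the combination (22% of all genes), 8 in DMSO (13.4%), 8 in EZH2i (17.4%) and 13 in PRMT5i (24.5%). The median log2 difference over the members was 0.51 in the combination, −0.07 in DMSO, −0.14 in EZH2i and −0.06 in PRMT5i. ATF4 read 223 and 227 CPM in combination replicates 1 and 2, close to its PRMT5i libraries, and 344 and 355 CPM in replicates 3 and 4 (log2 difference 0.64, adjusted p = 0.127). PHGDH read 37.5 and 33.9 CPM against 73.6 and 71.1 CPM (1.02, adjusted p = 0.623), and PSAT1 69.4 and 71.3 CPM against 144 and 170 CPM (1.16, adjusted p = 0.827). JDP2 read 4.27 and 4.82 CPM against 10.7 and 11.9 CPM (1.31, adjusted p = 0.179), and SESN2 11.9 and 9.23 CPM against 21.0 and 21.5 CPM (1.01, adjusted p = 0.205). In each of these the first 2 libraries and the last 2 libraries were close to each other and apart from the other pair.

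**Figure D4:**
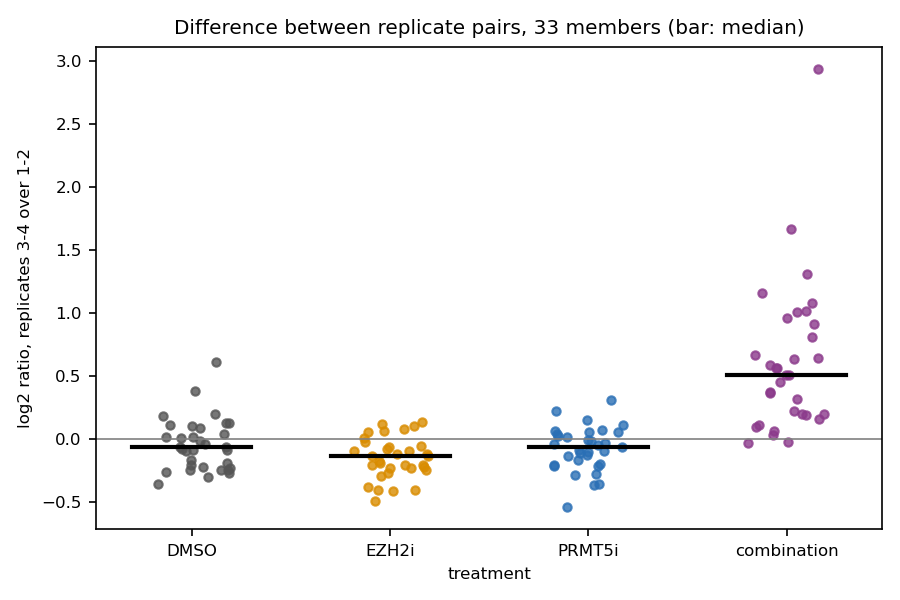
Log2 ratio of replicates 3 and 4 over replicates 1 and 2 for the 33 members, by treatment. Each point is a member and black bars are medians. The medians were −0.07 in DMSO, −0.14 in EZH2i, −0.06 in PRMT5i and 0.51 in the combination.

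No member passed the test for a difference between the replicate pairs common to all treatments. With replicates 3 and 4 against 1 and 2 as a term beside the 4 group means, 263 of all genes were called, 0.652% higher and 0.936% lower, and 0 of the 33 members (1 at an unadjusted p under 0.05 higher and 0 lower). This term was not fitted with DESeq2. It averages over the 4 treatments, and the median pair difference was 0.51 in the combination and below 0 in DMSO, EZH2i and PRMT5i. Such opposite differences can cancel, so the term cannot show whether treatments outside the combination share a difference. The pair difference in the combination minus that in PRMT5i passed the test for CHAC1 (3.22, SE 0.38, adjusted p = 0.0279) and ASNS (1.28, SE 0.16, adjusted p = 0.0279). They were the only 2 of all genes to do so (0.0121%), and 0 genes passed in the other direction (0%, with 0 members at an unadjusted p under 0.05).
The comparison of the combination with PRMT5i differed between the pairs in size and, for many members, in direction. It was below 0 for 19 of the 33 members within replicates 1 and 2 and for 1 within replicates 3 and 4. Within replicates 1 and 2 the members had a median log2 fold change of −0.05, and 0 were called higher (1 at an unadjusted p under 0.05, against 0.290% of all genes) and 0 lower (3 at an unadjusted p under 0.05, against 0.0966%). Within replicates 3 and 4 the median was 0.54, 8 members were higher (1.18% of all genes) and 0 lower (0 at an unadjusted p under 0.05, against 0.272% of all genes). The 8 were CHAC1 (2.28), STC2 (1.42), CBS (1.21), ASNS (1.19), GPT2 (1.03), CTH (0.96), ATF3 (0.93) and ATF4 (0.69). For CHAC1 the value within replicates 1 and 2 was −0.94 (SE 0.28, adjusted p = 0.204), for STC2 −0.46 and for ASNS −0.09.
For the interaction, 0 members were called within replicates 1 and 2 (5 at an unadjusted p under 0.05) and 8 were higher within replicates 3 and 4, against 0.0423% and 0.272% of all genes. Its value for CHAC1 was 2.94 within replicates 3 and 4. The fall against DMSO was seen in both pairs: the combination had 28 members lower within replicates 1 and 2 (median −1.65) and 24 within replicates 3 and 4 (median −0.94), against 11.4% and 8.15% of all genes. With PRMT5i alone the counts were 28 (11.0% of all genes) and 29 (10.4%).

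Members that had fallen further with PRMT5i had the larger pair difference in the combination. Across the 33 members the log2 fold change of PRMT5i against DMSO and the pair difference in the combination had a Pearson r of −0.79 and a Spearman rho of −0.81. Over all 16555 genes the values were 0.02 and 0.03. The 2 measures share no library, but every member's value comes from the same few libraries and the members are not independent replicates. SESN2 lay above the trend with 1.01 at a PRMT5i change of −1.46, and INHBE was below it with 0.91 at −3.73. The lowest pair differences were those of ALDH18A1 (−0.03), NUPR1 (−0.02), CEBPG (0.03), GDF15 (0.06), XPOT (0.10) and ATF5 (0.11). Of these, NUPR1, CEBPG, GDF15 and XPOT had fallen with PRMT5i.

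**Figure D5:**
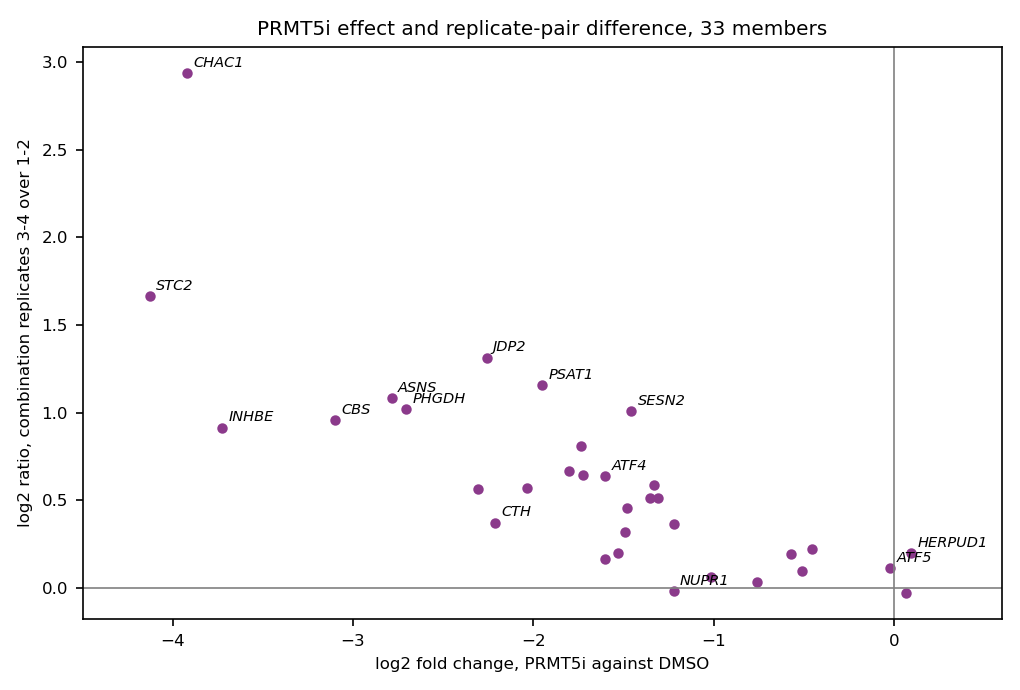
Log2 ratio of combination replicates 3 and 4 over 1 and 2 against the log2 fold change of PRMT5i over DMSO. Each point is 1 of the 33 members, some of them named. Points run from CHAC1 and STC2 at the upper left to ATF5 and HERPUD1 near the origin (Pearson r −0.79).

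Depth differed between the combination pairs, and its part in the member values was not tested. Replicates 3 and 4 were the less deeply sequenced libraries, with 35.6 and 35.3 M expected counts against 49.8 and 40.5 M. Mitochondrial counts did not part the pairs, at 0.613% and 0.615% against 0.508% and 0.792%. The members took 0.267% and 0.279% of the counts in replicates 3 and 4 and 0.207% and 0.211% in replicates 1 and 2. The median pair difference was 0.43 for amino acid transporters, 0.20 for tRNA synthetases and −0.24 for the ATF6 and XBP1 arm. Among marker lists it was 0.02 for myeloid genes and 0.06 for the MLL programme. It was −0.32 for T and NK, 0.35 for B and 0.16 for epithelial and fibroblast markers, each with 4 tested genes. The labels number the replicates and give no batch, so what parts the pairs is not stated.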

How the data were processed

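RNA of 16 MOLM-13 samples was read by paired-end sequencing, per the labels. The deposited file lists expected counts, unscaled, for each gene and sample. STAR 2.5.3 (alignment), RSEM (counting) and the build GRCh38.p7 are named in the submitters' processing notes. The annotation, strand setting and RSEM version are not given in the sources used here. Of the deposited expected counts, 12.0% are not whole.

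Expected counts were rounded. Genes were kept by filterByExpr of edgeR 4.0.16 (minimum count 10, minimum total count 15), which left 16555 of 60669. TMM factors (trimmed mean of M values) set the library sizes, also for CPM. All 16 libraries entered 1 edgeR quasi-likelihood fit with a mean for each of the 4 groups, with Benjamini-Hochberg adjustment over all genes tested and a threshold of 0.05. "Called", "rose" and "fell" refer to that threshold. Log2 fold changes and their standard errors (SE) come from this model. The pairs of replicates were compared in a model with 8 means and with an added term for the pair. DESeq2 1.42.0, other scalings and filters, and fits without single libraries were alternatives. The model was tested on simulated data. R 4.3.3 and Python 3.11.15 were used.

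The members, their roles, the gene lists and the comparisons were chosen with earlier results of these data known. All 33 members may be named. From each related list up to 3 called genes with the smallest p for PRMT5i against DMSO are named, and SLC36A1, EIF2B2, EIF2B3, EIF2AK4, EIF2S3, ATF6, HYOU1 and GCLM were added after their values were seen. One gene that this rule names is not reported here. The symbol GCN1 of the upstream list had no match. MARS, SARS, LARS and the other synthetases are older symbols, as the table gives them. Marker lists served to check the cell line: summed B cell markers were 0.693 to 1.96 CPM, T and NK markers 24.5 to 35.5, epithelial and fibroblast markers 12.7 to 31.4 and MLL programme genes 199 to 292. Exon overlaps come from GENCODE release 29 and promoters from RefSeq. Correlation of same-numbered replicates was 0.039 on average, so numbers were not used to pair samples. Libraries of a group differed by more than sampling noise, so none was counted as a duplicate.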

Additional observations from a re-analysis of the deposited data

Results flagged for a closer look

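In 5 of 132 sets of 4 libraries (33 members in 4 treatments) 1 library lay far from the other 3, by Dixon's criterion at the 95% level; chance gives about 1 in 20. ATF4 in PRMT5i replicate 3 was 222 CPM, against 209 to 211 in the others. ATF3 in PRMT5i replicate 3 was 4.11 CPM, against 4.65 to 4.74, and ATF3 in EZH2i replicate 1 was 13.4 CPM, against 11.3 to 11.6. DDIT3 in DMSO replicate 1, the library that stood apart, was 38.1 CPM, against 25.0 to 27.2. ALDH1L2 in EZH2i replicate 1 was 119 CPM, against 97.6 to 101.

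The effect of EZH2i differed with and without PRMT5i, by the interaction term, for DDIT3 (log2 0.86) and CTH (log2 1.09). The difference between replicates 3 and 4 and replicates 1 and 2 was larger in the combination than in PRMT5i for ASNS (log2 1.28) and CHAC1 (log2 3.22), by a test of that difference in the model with 8 means.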

How the results depend on the processing

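The alternatives were total counts without TMM, no filter on low counts, DESeq2, a replicate block, a block for the replicate pair, each pair alone, the compared groups alone, and each library left out. Total counts for the pair difference in the combination were added after seeing the data: 1 member was called against 3, and 25 members against 27 had both replicates 3 and 4 above both others. The replicate numbers do not pair the samples (mean correlation 0.039, lowest −0.27, and 0 of 16 libraries closest to their own number). With the replicate block, members called against DMSO were 7 (EZH2i), 30 (PRMT5i) and 29 (combination); in the combination they were 1 against PRMT5i, 28 against EZH2i and 2 for the interaction, as without it. Genes called with the block were 1430, 5939, 6130, 857, 4740 and 50. For EZH2i against DMSO, members lower were 4 by total counts, 2 within replicates 1 and 2, 3 within replicates 3 and 4, and 2 in the 2 groups alone. Genes called there (1259) were 2149 by DESeq2, 165 and 229 within the pairs, and 135 in the 2 groups alone. Within the pairs, genes called with PRMT5i (5847) were 3324 and 3341, in the combination against DMSO (5990) 3579 and 2765, and against EZH2i (4633) 2623 and 2071. For the combination against PRMT5i, members higher were 3 by total counts, 6 by DESeq2, 0 and 8 within the pairs and 3 in the 2 groups alone. Genes called there (688) were 1064, 64, 241 and 2099 by DESeq2, within the pairs and in the 2 groups alone. For the interaction, members were 4 by DESeq2 and 0 and 8 within the pairs, and genes (48) were 121 by DESeq2 and 8 within replicates 1 and 2. Leaving out 1 library gave 3 to 7 members and 499 to 4591 genes for EZH2i against DMSO, the latter without DMSO replicate 2. It gave 30 to 30 and 4898 to 6853 for PRMT5i, 29 to 29 and 5122 to 7110 for the combination against DMSO, and 1 to 3 and 263 to 533 against PRMT5i. Against EZH2i it gave 28 to 28 and 3714 to 4915, for the interaction 1 to 2 and 28 to 124, and for the pair term 155 to 494 genes and 0 to 0 members. The direction turned for ATF5 with PRMT5i (0.011 by total counts, 0.019 within replicates 1 and 2, 0.12 and 0.060 without DMSO replicates 2 and 3, 0.028 and 0.0081 without PRMT5i replicates 1 and 4; range without 1 library −0.20 to 0.12) and for HERPUD1 without DMSO replicate 1 (−0.046; range −0.046 to 0.19). Within replicates 1 and 2 the combination against PRMT5i was below 0 for 19 members, against 2 over all libraries. Among the 19 were ASNS (−0.094), STC2 (−0.46) and CHAC1 (−0.94). The interaction was below 0 within replicates 1 and 2 for 10 members, against 1 over all libraries, with CHAC1 (−0.55) among the 10. The cause was not tested. Members under about 2 CPM rest on the fewest counts. These were NUPR1 and GDF15, INHBE with PRMT5i and in the combination, and STC2 and CHAC1 with PRMT5i and in combination replicates 1 and 2. The pair differences of CHAC1 and STC2 in the combination thus rest in part on such low values.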
